A study of Mus musculus with 86 samples.

Results

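The circadian clock genes and their outputs described here are 10 genes, Dbp, Hlf, Tef, Nr1d1, Nr1d2, Per1, Per2, Per3, Cry1 and Npas2. They were found by gene symbol on a mouse genome expression array and are read by 23 of its 45101 probe sets. The levels are log2 intensities in whole mouse hearts, on a scale where the median probe set of each array lies at 0. All 23 probe sets passed the filter for testing, a highest group mean above 0, and some did so through 1 group alone (Per2 1417603_at, Per3 1460662_at and Npas2 1421036_at). Each gene is described by its leading probe set, the one of highest mean over all arrays.

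The study measured hearts of 4 mouse lines with and without continuous infusion of isoproterenol, a beta-adrenergic agonist, for 14 days at 120 µg per g per day. The groups, infused and untreated, held 12 and 10 FVB arrays, 10 and 11 C57BL/6 arrays, 10 and 10 B2KO arrays, and 12 and 10 B6129SF2/J arrays. FVB, C57BL/6 and B6129SF2/J were described as wild type, B6129SF2/J served as the separate group in which a gene set for left ventricular dysfunction was tried, and the labels do not explain the name B2KO further. All mice were anaesthetised with avertin and killed by cervical dislocation, and untreated mice are not described as having received a vehicle. The labels give no age, no sex and, what matters for these genes, no time of day for tissue collection and no lighting schedule. Line, treatment and time of collection can therefore not be told apart where they moved together. Nothing states how the arrays relate to animals beyond a number per group, so p-values measure the spread between these samples.

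In the mammalian clock, Arntl pairs with Clock or with its relative Npas2 and switches on genes through E-box sequences, among them the Per and Cry genes, whose proteins then repress that pair. Nr1d1 and Nr1d2 encode the nuclear receptors REV-ERB alpha and beta, which repress Arntl and Npas2. Dbp, Hlf and Tef encode the PAR bZIP factors, which carry the rhythm to output genes through D-box sequences. In mouse heart, as in other tissues, these transcripts rise and fall over the day, with Dbp and Nr1d1 high when Arntl and Npas2 are low, so that a heart sampled at another hour reads differently at all of them.

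The promoters of the 5 genes that passed the test in B6129SF2/J hearts are shown first, since E-boxes and D-boxes are what links these genes in the textbook loop. Each is the 250 bases before a transcription start in RefSeq (GRCm38.p6), read 5′ to 3′ on the gene's own strand, with 4 motifs in capitals on either strand: CACGTG (the E-box), TGACGTCA (the cAMP response element), TTATGTAA (the D-box) and AGGTCA (a nuclear receptor element). For Dbp and Per3 that start is not the outermost one. The annotated gene begins inside the window, at 45705100 for Dbp and 151044707 for Per3.
Dbp, chr7:45704997-45705246, plus strand: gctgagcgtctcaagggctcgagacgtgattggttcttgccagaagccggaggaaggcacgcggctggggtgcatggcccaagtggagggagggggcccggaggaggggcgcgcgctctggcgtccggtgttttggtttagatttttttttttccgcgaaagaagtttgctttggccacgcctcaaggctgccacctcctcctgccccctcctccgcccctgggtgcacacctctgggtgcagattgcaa
Hlf, chr11:90390918-90391167, minus strand: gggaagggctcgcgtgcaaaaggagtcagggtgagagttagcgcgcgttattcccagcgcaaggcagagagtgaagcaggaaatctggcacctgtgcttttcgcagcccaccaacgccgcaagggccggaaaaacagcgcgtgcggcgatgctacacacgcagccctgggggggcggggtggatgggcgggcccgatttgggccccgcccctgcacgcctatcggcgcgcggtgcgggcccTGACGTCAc
Nr1d1, chr11:98775378-98775627, minus strand: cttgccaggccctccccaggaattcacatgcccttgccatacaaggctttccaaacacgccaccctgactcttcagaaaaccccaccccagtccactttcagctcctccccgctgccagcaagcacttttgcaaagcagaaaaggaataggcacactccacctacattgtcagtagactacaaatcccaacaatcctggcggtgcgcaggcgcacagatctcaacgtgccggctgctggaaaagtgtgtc
Per3, chr4:151044666-151044915, minus strand: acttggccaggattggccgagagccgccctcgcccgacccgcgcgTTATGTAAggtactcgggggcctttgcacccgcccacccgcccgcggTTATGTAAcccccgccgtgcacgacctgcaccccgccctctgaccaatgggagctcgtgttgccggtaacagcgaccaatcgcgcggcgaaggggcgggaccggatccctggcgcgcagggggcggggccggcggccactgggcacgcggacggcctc
Cry1, chr10:85185055-85185304, minus strand: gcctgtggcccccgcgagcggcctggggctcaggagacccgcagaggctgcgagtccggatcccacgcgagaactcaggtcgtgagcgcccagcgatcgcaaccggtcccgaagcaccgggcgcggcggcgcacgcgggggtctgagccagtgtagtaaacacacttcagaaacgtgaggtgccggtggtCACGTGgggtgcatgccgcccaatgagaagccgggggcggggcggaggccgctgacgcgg
Cry1 held an E-box that starts 60 bases before its start site, and Per3 held 2 D-boxes, at 205 and 158 bases before the start used for its window. Hlf held a cAMP response element at 9 bases, next to the start. The windows of Dbp and Nr1d1 held none of the 4 in these letters. No match overlapped another.

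Among the genes not printed, both Tef windows held an E-box, 1 of the Per1 windows held an E-box and a nuclear receptor element, Nr1d2 held a nuclear receptor element, and Npas2 held none. The Npas2 window, both Per1 windows and 1 Tef window lie inside the annotated gene, before later starts. Of 32851 mouse promoter windows of this length, 6.02% held the E-box, 1.55% the cAMP response element, 0.819% the D-box and 14.02% the nuclear receptor element. These matches describe letters in a window and no binding was measured. Windows were found for 9 of the 10 genes, all but Per2.

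Some arrays stood apart. Treated B2KO replicates 4 and 9 held the same values (r = 0.99999976) and were averaged into 1 array, which left 85 arrays. The array labelled treated B2KO replicate 10 is called failed here, since its median r with other arrays was 0.573, against 0.831 to 0.963 for all others. Treated FVB replicate 2 lay nearer to another line than to its own at probe sets that separate the lines (root mean square distance 0.945 against 2.57). Treated B2KO replicate 7 lay about as near (1.72 against 1.53). For these distances FVB and B2KO were pooled as 1 background, a choice that the labels do not give. Untreated B2KO replicate 1 was the only array with a high Xist level (3.20). The array with high Xist is not counted among the doubtful ones and was left out only in the single omissions. A further 5 arrays had a Gapdh 3′ signal more than 2 log2 units above the 5′ signal, a sign of degraded RNA. The 6 cardiac muscle markers were well above the array median on all arrays, with Myh6 between 11.0 and 13.0. Others varied more, with lowest values of 6.34 for Actc1 (median 10.8) and 6.89 for Ryr2 (median 9.45). The failed array, the 2 in doubt by line and the 5 in doubt by RNA make 8 doubtful arrays. Results that move without them are given beside the main values or, for counts of called genes, in the last section.

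Isoproterenol-infused B6129SF2/J hearts held less Dbp, Hlf, Nr1d1 and Per3 and more Cry1 than untreated ones. A total of 5 of the 10 genes passed the test, 4 lower and 1 higher, where 4.91% of all 21465 probe sets tested were called and 2.58% were called lower. The test was limma, fitted over all 8 groups at once, with Benjamini-Hochberg adjustment over all probe sets tested and a threshold of 0.05. The median change of the 10 genes was -0.55, against a median of -0.01 over all probe sets. The plot of log2 differences shows the 10 genes in the 4 lines.

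**Figure D1:**
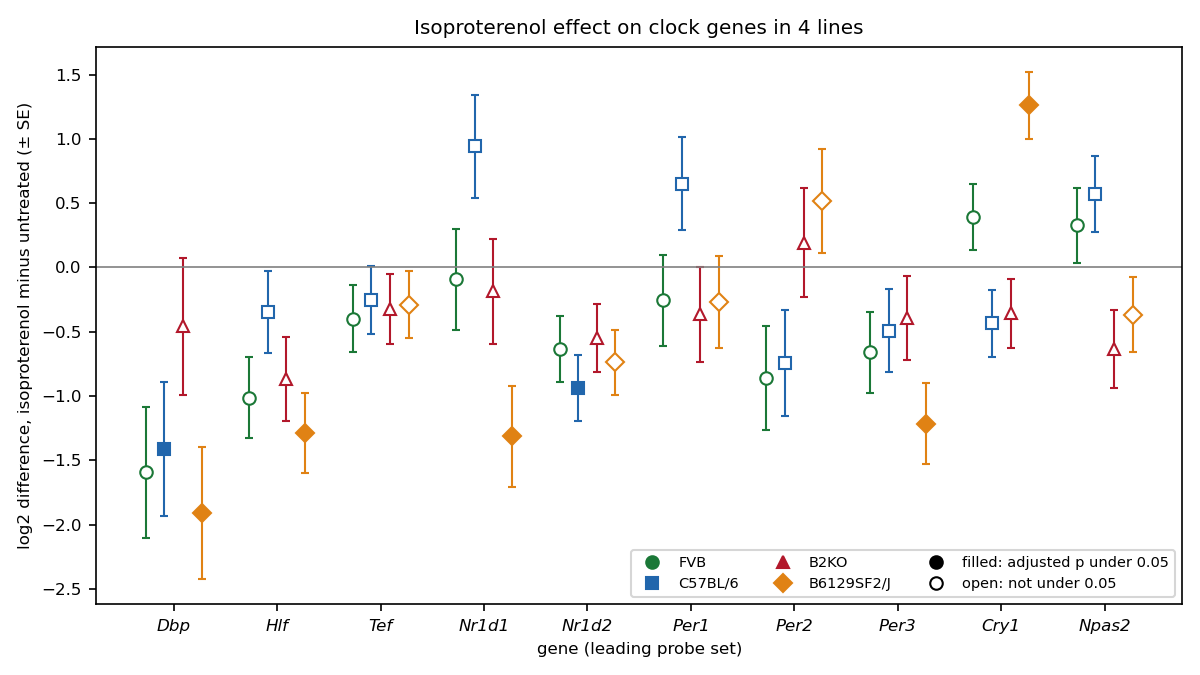
Log2 difference (isoproterenol minus untreated, ± SE from the limma fit over 85 arrays) for the leading probe set of each of the 10 genes in 4 lines. Filled points passed an adjusted p of 0.05: Dbp and Nr1d2 in C57BL/6, and Dbp, Hlf, Nr1d1, Per3 and Cry1 in B6129SF2/J. Cry1 in B6129SF2/J, at 1.26, is the only filled point above 0.

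Dbp, the PAR bZIP factor most used as a readout of clock output, had 2.28, 3.15 and 5.22 as lowest, median and highest log2 level in treated B6129SF2/J hearts, against 4.54, 5.36 and 5.99 in untreated ones. The ranges overlapped, and all 12 treated arrays lay below the untreated mean. The log2 difference was -1.91 ± 0.51 (SE), a level 0.266 times that of untreated hearts, with a limma adjusted p of 0.0134. The other Dbp probe set, 1418174_at, gave -1.70.

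Hlf, a second PAR bZIP factor, had 1.08, 2.35 and 3.01 in treated B6129SF2/J hearts against 2.95, 3.72 and 4.17 in untreated ones, so that the ranges barely met. Its difference was -1.29 ± 0.31 (limma adjusted p = 0.00533), with all 12 treated arrays below the untreated mean. The third member of the family, Tef, had 4.11, 4.56 and 5.14 in treated and 4.39, 4.90 and 5.26 in untreated B6129SF2/J hearts, a difference of -0.29 ± 0.26 that missed the threshold (limma adjusted p = 0.625). The weaker Tef probe set 1438033_at read otherwise: it had -1.52, -0.77 and 0.70 in treated against 0.57, 2.01 and 2.42 in untreated B6129SF2/J hearts, a difference of -2.56 (limma adjusted p = 7.52e-07). That probe set lay below its array's median in 10 of 12 treated and 0 of 10 untreated arrays, and over all arrays it correlated with the leading Tef probe set at r = 0.345, as a description.

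**Figure D2:**
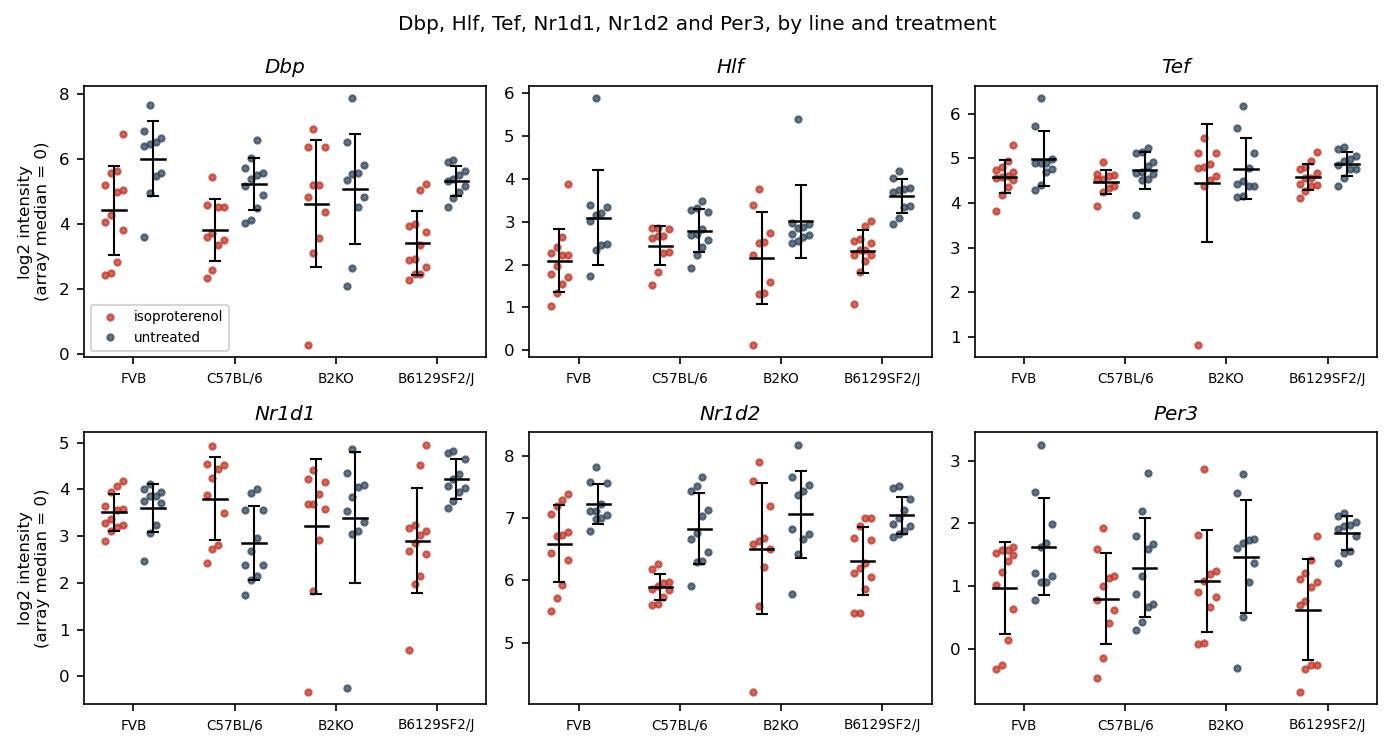
Log2 intensity (array median = 0) of Dbp, Hlf, Tef, Nr1d1, Nr1d2 and Per3 on each of the 85 arrays, isoproterenol left of untreated in each line, with bars for the group mean ± SD. In B6129SF2/J the untreated arrays of Dbp lie between 4.54 and 5.99 and the treated ones between 2.28 and 5.22.

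Among the repressors, Nr1d1 had 0.57, 2.94 and 4.95 in treated B6129SF2/J hearts against 3.60, 4.14 and 4.82 in untreated ones. The treated arrays spread over a wide range and the highest of them exceeded every untreated array. The difference was -1.31 ± 0.39 (limma adjusted p = 0.0310), in the same direction in 10 of 12 treated arrays. This call was the least firm of the 5: quantile normalization gave an adjusted p of 0.0654. Leaving out treated replicate 1, 3 or 5 or untreated replicate 4, 6 or 9 also ended it, with adjusted p up to 0.0875 and a difference of -1.10 to -1.50 over all single omissions.

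Per3, a member of the Per family, had -0.68, 0.87 and 1.80 in treated B6129SF2/J hearts against 1.37, 1.94 and 2.17 in untreated ones. The untreated arrays formed a narrow band and all 12 treated arrays lay below its mean. The difference was -1.22 ± 0.31 (limma adjusted p = 0.0102). The Per3 probe sets 1458176_at (-1.70) and 1441445_at were also called lower, each below the array median on 10 of 12 treated and 1 of 10 untreated arrays. The group mean of 1441445_at exceeded the array median in only 2 of the 8 groups. Its call is therefore no separate support, and its size is not given. Nr1d2 had 5.47, 6.24 and 7.01 in treated and 6.70, 6.95 and 7.51 in untreated B6129SF2/J hearts. Its difference of -0.74 ± 0.25 missed the threshold (limma adjusted p = 0.0744) although all 12 treated arrays lay below the untreated mean, and it passed without the doubtful arrays (adjusted p = 0.0185).

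Cry1, a repressor whose transcript peaks late in the cycle, ran the other way. It had 1.96, 3.38 and 4.53 in treated B6129SF2/J hearts against 0.71, 2.24 and 2.75 in untreated ones. The ranges overlapped, and 11 of 12 treated arrays lay above the untreated mean. The difference was 1.26 ± 0.26, a level 2.40 times that of untreated hearts (limma adjusted p = 0.000749). Per1 (-0.27 ± 0.36), Per2 (0.52 ± 0.40) and Npas2 (-0.37 ± 0.29) did not pass in this line. Without the doubtful arrays the 5 calls stood, with differences of -1.91 for Dbp, -1.35 for Hlf, -1.34 for Nr1d1, -1.23 for Per3 and 1.29 for Cry1.

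In C57BL/6 hearts Dbp and Nr1d2 were lower after isoproterenol, and the other 8 genes did not pass. Both calls were in the lower direction, 2 of 10 genes, where 22.4% of all probe sets were called and 8.40% were called lower. The median change of the 10 genes was -0.39, against 0.10 over all probe sets, both before centring. After each array was centred the median over all probe sets was -0.10, and that of the 10 genes is not given. Dbp had 2.34, 3.66 and 5.46 in treated against 4.03, 5.40 and 6.59 in untreated C57BL/6 hearts. The ranges overlapped over more than a log2 unit, and 9 of 10 treated arrays lay below the untreated mean. The difference was -1.41 ± 0.52, a level 0.375 times that of untreated hearts (limma adjusted p = 0.0396).

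The Dbp call in C57BL/6 lay close to the threshold. It was lost without any of treated replicates 2, 3, 4, 5, 6 or 8 or untreated replicates 1, 5, 7 or 11, where the adjusted p ran up to 0.0845 and the difference over all single omissions from -1.25 to -1.60. It was also lost when all probe sets of the gene were averaged (adjusted p = 0.0980). Nr1d2 had 5.60, 5.88 and 6.26 in treated against 5.91, 6.76 and 7.66 in untreated C57BL/6 hearts. The treated arrays were close together (SD 0.215) and all 10 lay below the untreated mean, for a difference of -0.94 ± 0.26 (limma adjusted p = 0.00534). The other Nr1d2 probe set, whose correlation with the leading one over the 85 arrays was 0.04, did not pass, and the average of the 2 gave an adjusted p of 0.211.

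Nr1d1 had 2.42, 4.07 and 4.92 in treated C57BL/6 hearts against 1.75, 2.68 and 4.01 in untreated ones. The difference of 0.94 ± 0.40 pointed the other way from that in B6129SF2/J and missed the threshold (limma adjusted p = 0.0778), with 7 of 10 treated arrays above the untreated mean. It passed without the doubtful arrays (adjusted p = 0.0314) and without 1 of treated replicate 8 or untreated replicates 9 and 10 (0.0451 to 0.0498). Per1 (0.65 ± 0.36) and Npas2 (0.57 ± 0.30) were above 0 and Cry1 (-0.44 ± 0.26), Per2 (-0.74 ± 0.41), Per3 (-0.49 ± 0.32), Hlf (-0.35 ± 0.32) and Tef (-0.25 ± 0.27) below 0, all short of the threshold. A dimmer Npas2 probe set, 1421036_at, passed the filter through treated C57BL/6 hearts alone, so its difference there supports nothing. It lay below the array median on 4 of 10 treated and 11 of 11 untreated C57BL/6 arrays.

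FVB hearts gave no call. Dbp and Hlf had differences near those in B6129SF2/J, and Nr1d1 and Cry1 had smaller ones. Of the 10 genes, 0 were called by limma, where 1.16% of all probe sets were, and 5 had an unadjusted p under 0.05, as did 2317 of all 21465 probe sets. The median change of the 10 genes was -0.52, against 0.00 over all probe sets. Dbp had 2.41, 4.63 and 6.77 in treated against 3.60, 6.44 and 7.66 in untreated FVB hearts. Both groups spread widely, and 11 of 12 treated arrays lay below the untreated mean, for a difference of -1.59 ± 0.51 (limma adjusted p = 0.119). Hlf had 1.03, 2.09 and 3.89 in treated against 1.74, 3.08 and 5.88 in untreated FVB hearts, a difference of -1.01 ± 0.31 (limma adjusted p = 0.0976).

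Without the failed array, which belongs to another line and enters this comparison through the shared estimate of spread, Dbp and Hlf in FVB passed with adjusted p of 0.0496 and 0.0468. Without treated FVB replicate 2, the array nearer to another line, Hlf alone passed (0.0215), and without untreated FVB replicate 5 both passed (0.0497 and 0.0431). The other 8 genes ran from -0.86 for Per2 to 0.39 for Cry1. Nr1d1 had a difference of -0.09 ± 0.39, with treated levels of 2.89, 3.46 and 4.18 against untreated levels of 2.47, 3.80 and 4.11 that cover nearly the same range.

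In B2KO hearts no clock gene passed. The count called by limma was 0 of 10, where 1.00% of all probe sets were, and 3 had an unadjusted p under 0.05, as did 4177 of all 21465 probe sets. Dbp had 0.27, 5.01 and 6.94 in treated against 2.08, 5.45 and 7.88 in untreated B2KO hearts. The lowest treated value is that of the failed array, and the next lowest was 3.11. The difference was -0.46 ± 0.53 with the failed array and 0.03 ± 0.51 without it. Hlf (-0.87 ± 0.33) and Npas2 (-0.64 ± 0.30) became -0.64 ± 0.32 and -0.65 ± 0.31 without that array. Both Hlf differences include untreated replicate 1, the array with high Xist, which read 5.40 where the others of its group lay between 2.49 and 2.97. The median change of the 10 genes was -0.38 in B2KO, beside a median of -0.25 over all probe sets, both before centring. After each array was centred the median over all probe sets was 0.00, and that of the 10 genes is not given.

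Averaged over the 4 lines with equal weight, 4 of the 10 genes were lower after isoproterenol and 0 higher, where 20.3% of all probe sets were called and 12.0% were called lower. Their median change was -0.27, against -0.04 over all probe sets. Dbp averaged -1.34 ± 0.26, Hlf -0.88 ± 0.16, Nr1d2 -0.72 ± 0.13 and Per3 -0.69 ± 0.16, with limma adjusted p between 1.93e-05 and 0.000895. No omission of 1 array ended any of these 4 calls. Averaging the probe sets of each gene ended the Nr1d2 call (adjusted p = 0.0921). Tef averaged -0.32 ± 0.13 (adjusted p = 0.0774), and Nr1d1, whose line values had opposite signs, averaged -0.16 ± 0.20.

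The remaining repressors and the activator Npas2 are shown in the plot of Cry1, Npas2, Per1 and Per2 levels. Cry1 medians over the 8 groups ran from 2.24 in untreated B6129SF2/J to 3.38 in treated B6129SF2/J, so that this line held both ends of the order. The neighbouring groups in that order overlapped. Npas2 medians ran from 0.20 in untreated FVB to 1.57 in treated C57BL/6, and Npas2 lay below the array median on 5 of 12 treated and 2 of 10 untreated B6129SF2/J arrays, where its readings are least certain. Per2 medians ran from -0.25 in untreated B6129SF2/J to 1.77 in untreated FVB, and Per1 medians from 1.55 in treated B6129SF2/J to 2.76 in untreated FVB.

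**Figure D3:**
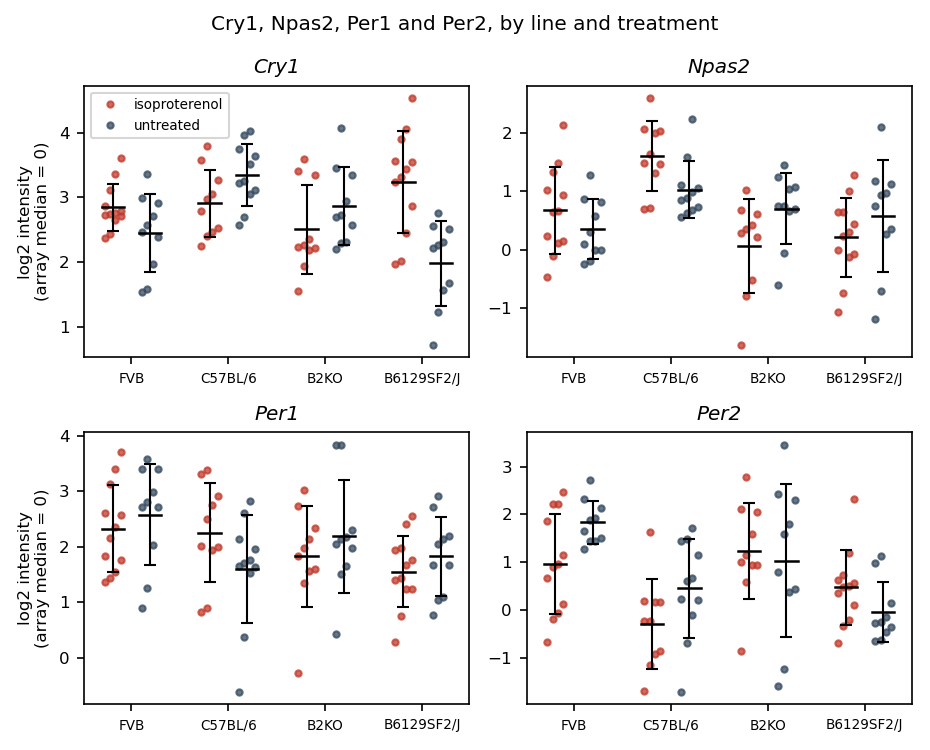
Log2 intensity (array median = 0) of the genes not in the plot of outputs and repressors, Cry1, Npas2, Per1 and Per2, on each of the 85 arrays, isoproterenol left of untreated in each line, with bars for the group mean ± SD. Cry1 in B6129SF2/J lies between 1.96 and 4.53 in treated and between 0.71 and 2.75 in untreated hearts.

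Differences between lines in the response were tested directly as interactions, and comparisons that share a line share its arrays. B6129SF2/J differed from C57BL/6 at 2 of 10 genes, where 9.34% of all probe sets were called. The Nr1d1 response was -1.31 in B6129SF2/J and 0.94 in C57BL/6, an interaction of -2.26 ± 0.56 (limma adjusted p = 0.00440). The Cry1 response was 1.26 in B6129SF2/J and -0.44 in C57BL/6, an interaction of 1.70 ± 0.37 (limma adjusted p = 0.000940). Neither call was lost in any of the alternatives run or on omission of any 1 array. Within each of these lines the Nr1d1 and Cry1 differences had opposite signs, and each gene's sign differed between the lines, the C57BL/6 differences being short of the threshold.

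B2KO differed from C57BL/6 at 1 gene, Npas2 (-1.21 ± 0.42, limma adjusted p = 0.0494), where 11.3% of all probe sets were called. B6129SF2/J differed from B2KO at 1 gene, Cry1 (1.62 ± 0.37, adjusted p = 0.0429), where 0.107% were. Both calls were absent in 8 alternatives each, among them the fit without the failed array. For Npas2, 1 of the 8 was the stricter filter, which removes this gene from the test. Each call was also lost on omission of 26 arrays taken singly. For Npas2 these were treated B2KO replicates 1, 5, 10 and 11, untreated B2KO replicates 3 to 7, 9 and 10, treated C57BL/6 replicates 2 to 6, 8 and 10, and untreated C57BL/6 replicates 1 to 4, 6, 7, 9 and 11. The interaction then ran from -1.02 to -1.35, with adjusted p up to 0.0836. For Cry1 they were treated B6129SF2/J replicates 1 and 3 to 8, untreated B6129SF2/J replicates 4, 6, 7, 9 and 10, treated B2KO replicates 1, 2, 4, 7, 8, 10 and 11, and untreated B2KO replicates 2 to 6, 8 and 10. That interaction ran from 1.47 to 1.74, with adjusted p up to 0.0941. Leaving out untreated B2KO replicate 8 added Nr1d1 to the B2KO minus C57BL/6 calls (-1.54, adjusted p = 0.0284). The other line pairs gave 0 of 10 genes by limma: FVB against C57BL/6, where 2.25% of all probe sets were called, B2KO against FVB, where 0% were, and B6129SF2/J against FVB, where 0.0233% were. At an unadjusted p under 0.05 they gave 1, 2 and 3 genes in that order, against 3568, 1583 and 1266 of all 21465 probe sets. The Dbp response was not shown to differ between any pair of lines, its interactions running from -1.45 ± 0.74 to 1.14 ± 0.74.

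Untreated hearts of the lines already differed at some of these genes. FVB differed from C57BL/6 at 2 of 10 genes, where 13.8% of all probe sets were called: Per2 was higher in FVB (1.38 ± 0.41, limma adjusted p = 0.0150) and Cry1 was lower (-0.90 ± 0.26, limma adjusted p = 0.0124). B6129SF2/J differed from C57BL/6 at 2 of 10 genes, where 10.6% were called: Nr1d1 was higher in B6129SF2/J (1.36 ± 0.40, limma adjusted p = 0.0156) and Cry1 was lower (-1.36 ± 0.26, limma adjusted p = 0.000124). In both pairs Cry1 was lower than in C57BL/6, and in B6129SF2/J all 10 untreated arrays lay below the C57BL/6 mean. Between untreated B6129SF2/J and C57BL/6 hearts, 3 of 3 B cell markers, 3 of 6 cardiac muscle markers and 1 of 2 lung markers were also higher and 1 of 2 erythroid markers was lower, and between untreated B6129SF2/J and FVB hearts 3 of 3 B cell markers and 1 of 2 lung markers were higher. Among the B cell markers, Cd79a and Cd79b had highest group means of only 0.15 and 0.42, so only the Ighm calls lie clear of the filter. Of the markers of the cell type lists, 0 were called by limma between untreated FVB and C57BL/6 hearts. Their part in the differences was not tested. Nr1d1 missed the threshold under quantile normalization (adjusted p = 0.0562), and Per2 did so without untreated C57BL/6 replicate 2 (adjusted p = 0.0523). Per1 missed it between FVB and C57BL/6 (0.98, adjusted p = 0.0569) and passed without untreated FVB replicate 3, 8 or 9 or untreated C57BL/6 replicate 7 or 8 (0.0218 to 0.0490).

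B6129SF2/J differed from FVB at 1 gene, Per2, where 6.96% of all probe sets were called. Per2 had -0.63, -0.25 and 1.14 in untreated B6129SF2/J hearts against 1.29, 1.77 and 2.72 in untreated FVB hearts, groups that did not overlap (-1.87 ± 0.42, limma adjusted p = 0.00132). Per2 lay below the array median on 7 of 10 untreated B6129SF2/J and 0 of 10 untreated FVB arrays, so the size of this difference is uncertain. B2KO against FVB gave 0 of 10 genes by limma, where 0.0233% of all probe sets were called, and also 0 at an unadjusted p under 0.05, against 783 of all 21465 probe sets. The interactions of Nr1d1 and Cry1 between B6129SF2/J and C57BL/6 contain these differences between untreated groups. For Per3, untreated FVB minus C57BL/6 was called higher at 1421087_at (2.01) and lower at 1441445_at. The probe set 1441445_at lay below the array median on 8 of 10 untreated FVB arrays. Its group mean exceeded that median in only 2 of the 8 groups, so its size is not given and its call supports nothing. The probe set 1460662_at passed the filter through untreated FVB alone and is given no difference. Whether sequence differences between the lines under the probes act on these values was not tested.

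The opposed phases of the clock were read from 4 genes, Dbp and Nr1d1 on the first side and Npas2 and Cry1 on the other. Their contrast, the mean log2 level of Dbp and Nr1d1 minus that of Npas2 and Cry1, is high in the phase when the outputs peak. In B6129SF2/J it had -0.85, 1.12 and 4.52 in treated hearts against 2.08, 3.73 and 4.25 in untreated ones, and 9 of 12 treated arrays lay below the lowest untreated array. The treated group also held the highest array of this line. In FVB it had 0.88, 2.48 and 3.30 in treated against 2.10, 3.56 and 4.63 in untreated hearts, with 4 of 12 treated arrays below the lowest untreated one. In C57BL/6 it had 0.28, 1.06 and 3.72 in treated against 0.95, 1.67 and 2.88 in untreated hearts, with 4 of 10 below. The genes of a side did not move together there: Dbp was lower and Nr1d1 higher, Npas2 higher and Cry1 lower, with only Dbp past the threshold. In B6129SF2/J Cry1 was higher and Npas2 lower, Npas2 short of the threshold. A lower contrast is therefore not a shared shift of the 4 genes in these lines.

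In B2KO the contrast had -1.10, 3.25 and 4.81 in treated against 0.07, 2.56 and 4.63 in untreated hearts, and only the failed treated array lay below the untreated range. Without the doubtful arrays the lowest B2KO values were 1.03 in treated and 0.27 in untreated hearts. No test was made because the score is a sum over chosen genes. What part time of collection has in it was not tested, since no sample carries a time.

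**Figure D4:**
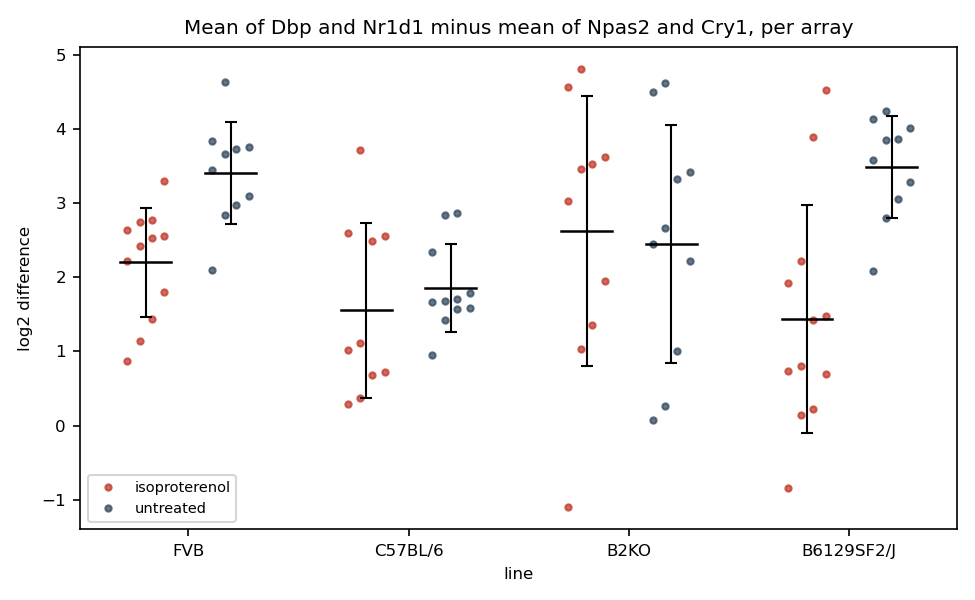
Mean log2 intensity of Dbp and Nr1d1 minus that of Npas2 and Cry1 on each of the 85 arrays, isoproterenol left of untreated in each line, with bars for the group mean ± SD. In B6129SF2/J, 9 of 12 treated arrays lie below the lowest untreated array at 2.08.

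The same opposition was looked for from array to array within each group: 48 relations (6 gene pairs in 8 groups) were computed, each with a permutation test of 100000 resamples and adjusted over the 48. Nr1d1 and Cry1 were opposed in treated B6129SF2/J hearts, with Pearson r = -0.90 (permutation p = 7.00e-05, adjusted p = 0.00336) and Spearman rho = -0.83 (permutation p = 0.00154, adjusted p = 0.0739) over 12 arrays. Without the 2 arrays farthest from the median of Nr1d1, r was -0.84. The same pair in untreated B2KO hearts gave r = -0.86 (permutation p = 0.00130, adjusted p = 0.0312) and rho = -0.82 (permutation p = 0.00576, adjusted p = 0.109) over 10 arrays, and r = -0.65 without the 2 farthest arrays. Without untreated B2KO replicate 8, an array of doubtful RNA with an Nr1d1 level of -0.26, the same pair gave r = -0.73 (adjusted p = 0.196) over 9 arrays and no longer passed. With each array centred it gave r = -0.91 (adjusted p = 0.0281).

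No other relation passed after adjustment, and 0 of 48 passed by Spearman's rho. Among the others were Dbp with Npas2, below 0 in 6 of 8 groups with a median r of -0.30, and Dbp with Nr1d1, above 0 in 6 of 8 groups with a median r of 0.40. Nr1d1 with Cry1 was below 0 in 6 of 8 groups, with a median r of -0.15. The pooled SD of Dbp within groups was 1.25 log2 units, larger than that of 99.1% of the probe sets tested, whose median was 0.618. Per2 (0.98) and Nr1d1 (0.95) were also among the most variable, at the 95.3 and 94.4 percentiles, while Tef (0.61), Nr1d2 (0.59) and Cry1 (0.60) lay near the middle.

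Over all 84 arrays other than the failed one, with each group centred on its own mean, the clock genes varied together as the matrix of correlations shows. Dbp went with Tef (r = 0.70), Nr1d2 (0.67), Per3 (0.65), Per2 (0.60) and Hlf (0.52), and against Arntl (-0.66). Nr1d1 went with Dbp only weakly (0.24) and against Cry1 (-0.49), and Npas2 went with Arntl (0.40) and against Per3 (-0.41). These r values are a description, and the arrays share labelling and RNA quality. Of the 45 pairs of members, 32 were above 0 and the median was 0.22.

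**Figure D5:**
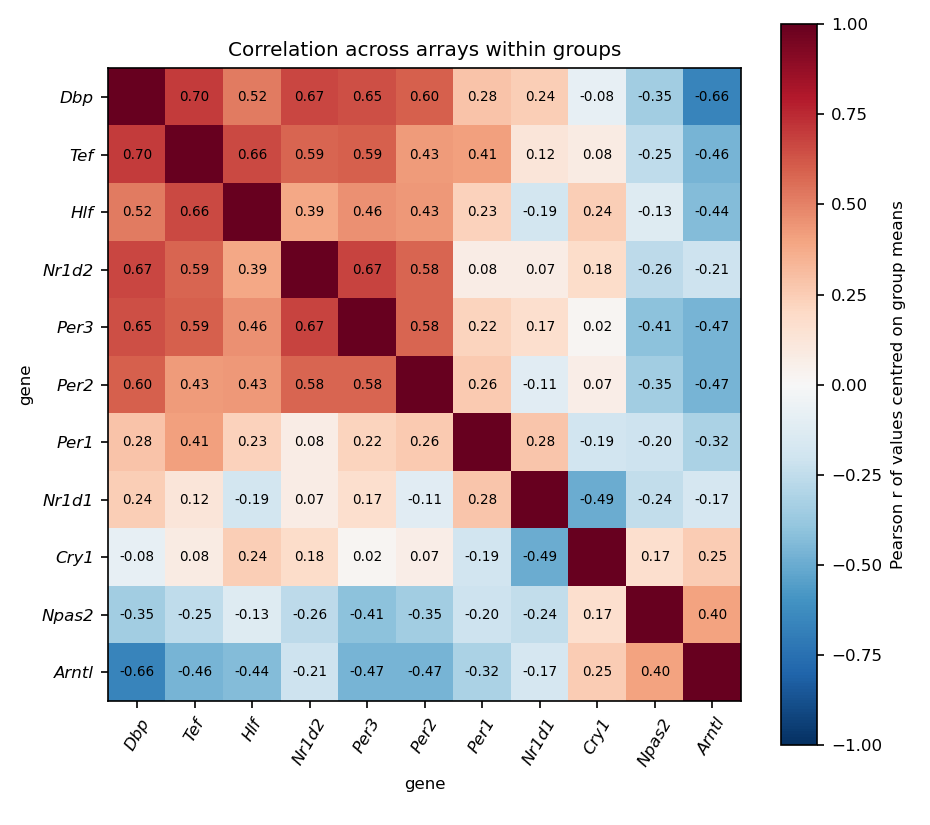
Pearson r between the 10 genes and Arntl over 84 arrays (all but the failed one), from log2 intensities centred on the mean of each line and treatment group. The PAR bZIP genes, Nr1d2, Per2 and Per3 form a block of positive values, with Dbp and Tef at 0.70, and Arntl is opposed to Dbp at -0.66.

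Likeness to Dbp was also ranked over all genes tested. Over 85 arrays Raph1 (0.65), Ephx1 (0.60), Pdcd4 (0.60), Pold3 (0.59) and Usp2 (0.58) were the 5 most alike outside the 10 genes, and Arntl (-0.44), Thbs1 (-0.44), Pygo1 (-0.42), Foxs1 (-0.41) and Adamts4 (-0.40) the 5 most opposed. Without the failed array Raph1 (0.54) was at the top, next to Wee1 (0.52), and Arntl (-0.66) and Thbs1 (-0.52) led the opposed end.

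Of 20 other clock genes and outputs on a list, 17 were tested. Arntl, the partner of Clock and Npas2, had 1.62, 2.63 and 3.85 in treated against 0.03, 1.46 and 2.87 in untreated FVB hearts, and all 12 treated arrays lay above the untreated mean. Its difference was 1.15 ± 0.32 in FVB (limma adjusted p = 0.0415). It was 0.79 ± 0.32 in C57BL/6 (adjusted p = 0.0658), 0.62 ± 0.32 in B6129SF2/J (adjusted p = 0.297) and -0.49 ± 0.33 in B2KO (adjusted p = 0.405). The average over the lines, 0.51 ± 0.16, passed (adjusted p = 0.0154). Clock itself ran from -0.53 to 0.28 and Cry2 from -0.19 to 0.54 over the 4 lines, with no call.

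Of the 17 genes, 1 was higher and 1 lower in FVB, where 1.16% of all probe sets were called. In C57BL/6 2 were higher and 1 lower, where 22.4% were called, so this count is below the background. In B2KO 1 was lower, where 1.00% were called, and in B6129SF2/J 1 was higher, where 4.91% were called. In the average over the lines 3 were higher (Arntl, Nfil3 and Bdh1) and 4 lower, among them Usp2 and Dgat2, where 20.3% were called. In FVB the lower gene was Usp2, which encodes a deubiquitinase with strong daily rhythm (-1.39). In C57BL/6 Nfil3, the repressor that competes with the PAR bZIP factors for the D-box, rose by 2.04 and Bdh1, an enzyme of ketone metabolism, by 1.85, while the kinase Csnk1d was lower (-0.91). Bdh1 also rose in B6129SF2/J (1.98), and Dgat2, an enzyme of triglyceride synthesis, was lower in B2KO (-1.46). Nfil3 in C57BL/6 had 2.09, 3.61 and 5.11 in treated against -0.28, 1.88 and 3.38 in untreated hearts, with all 10 treated arrays above the untreated mean. Between untreated lines, 4 of the 17 were higher and 2 lower in FVB than in C57BL/6, where 13.8% of all probe sets were called. In untreated B6129SF2/J, 0 were higher and 1 lower than in C57BL/6 (10.6% called), and 1 higher and 3 lower than in FVB (6.96% called).

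Without the 8 doubtful arrays more of the 17 passed: 1 higher and 5 lower in FVB, where 5.60% of all probe sets were called, 7 and 1 in C57BL/6, where 33.6% were, and 2 and 3 in B6129SF2/J, where 9.46% were. B2KO gave 0 and 1, but 0 and 0 without the failed array alone, where Dgat2 had an adjusted p of 0.0953. Without all 8, Arntl also passed in C57BL/6 (0.87, adjusted p = 0.0213), and Nfil3 in B6129SF2/J (1.13, adjusted p = 0.0497).

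Other gene groups moved in the same comparisons, and their part in the clock values was not tested. In C57BL/6, 6 of 7 immediate early genes tested rose (Fos by 2.86, Junb by 3.06), and their summed linear intensity ran from 56.3 to 2077 in treated against 40.3 to 91.3 in untreated hearts. That list was called at 0 of 7 in the other lines. Glucocorticoids reset peripheral clocks and induce Per1, and of 8 of their targets 2 (Mt1 and Mt2) were called higher in C57BL/6, near the background of 22.4%, and 2 (Mt2 and Sgk1) in B6129SF2/J, where 4.91% of all probe sets were called. Their summed intensity ran from 528 to 2075 in treated against 273 to 876 in untreated C57BL/6 hearts, and from 682 to 1589 in treated against 402 to 1281 in untreated B6129SF2/J hearts. Between untreated lines, 3 of these 8 were higher in FVB than in C57BL/6, where 13.8% of all probe sets were called. In untreated B6129SF2/J, 1 was higher and 2 lower than in C57BL/6 (10.6% called), and 4 were lower than in FVB (6.96% called). Of the 7 immediate early genes, 2 were higher in untreated FVB and 1 in untreated B6129SF2/J than in untreated C57BL/6.

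Markers of other cell types moved as well, and in whole heart fewer cells of a type and less RNA per cell cannot be told apart. B cell markers were lower in treated B6129SF2/J hearts at 3 of 3 genes tested, with summed intensities of 2.69 to 24.1 against 8.35 to 255 in untreated ones. Cd79a and Cd79b had highest group means of only 0.15 and 0.42, so they barely passed the filter and their calls support nothing. Ighm had group means from 2.06 to 5.10. Of 2 lung markers tested, Scgb1a1 was called lower there, at a probe set whose median over all arrays was -1.26, so no size is given. The sum of 5 lung markers ran from 1.46 to 3.24 (median 2.44) in treated and from 1.80 to 479 (median 2.73) in untreated hearts. Of 3 adipocyte markers tested, Cidea and Ucp1 were higher in treated C57BL/6 hearts, the sum of 4 running from 53.6 to 292 in treated and from 20.5 to 137 in untreated hearts. Erythroid markers were higher at 2 of 2 genes in treated FVB hearts (10.9 to 287 against 7.16 to 119 in untreated ones) and at 1 of 2 in C57BL/6. Over all arrays Scgb1a1, Sftpc, Sftpb, Sftpd, Cldn18, Cd79a, Cd79b, Lep and Hba-a1 had medians below the array median.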

How the data were processed

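Hearts of 4 mouse lines were measured on 86 arrays. The authors deposited linear intensity per probe set. The submitters' processing notes name GCRMA, with the version not given in the sources used here. Every deposited array has a median of 1, a scaling that no source states. From these values log2 intensities were taken and not normalized again. The array holds 45101 probe sets, and 64 control sets, 9160 sets without a gene symbol and 932 with more than 1 were not used. The 34945 with 1 symbol were matched to current names through RefSeq gene numbers (99.4% found), and 21465 whose highest group mean exceeded 0 were tested.

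An array pair with r over 0.9999 was averaged. A linear model over 8 groups and 85 arrays was fitted with limma 3.58.1 (R 4.3.3), two-sided, with Benjamini-Hochberg adjustment over all probe sets tested for each of 15 comparisons, and no batch term, since the labels give no batch. The number of arrays per group limits the precision. On simulated data for the B6129SF2/J comparison of 21465 probe sets, 46.3% of log2 changes of 1 and 95.5% of changes of 2 were found, with 7 calls among 21265 unchanged ones.

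The genes named are the 10 members in every comparison, other probe sets of a member that disagree in sign or call, Arntl, Clock, Cry2 and up to 4 called genes a comparison from the list of other clock genes, up to 2 each of the immediate early genes and glucocorticoid targets, the 5 genes most alike and most opposed to Dbp, and markers of the cell type lists. The members, lists and tests were chosen with earlier results of these data known. The threshold for a doubtful line (ratio 0.85) was set after seeing the arrays, as were the fits without doubtful arrays for correlations, the phase contrast and the other clock genes. Alternatives covered the filter, normalization, moderation, probe set choice, replicate block, arrays in doubt and each array in turn. Same-numbered arrays were checked for pairing: over 39 pairs the correlation of deviations ran from -0.39 to 0.33, and 6 exceeded 0.1, so no pairing was used. Some genes of the series are not reported here.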

Additional observations from a re-analysis of the deposited data

Results flagged for a closer look

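Arrays far from the rest of their group were looked for in 50 sets of values (each gene within each group of 10 arrays) by Dixon's test at 95%, which chance alone passes in about 5% of groups, and 5 were found. Hlf read 5.40 in untreated B2KO replicate 1, where the others of its group lay between 2.49 and 2.97, and 5.88 in untreated FVB replicate 10, where the others lay between 1.74 and 3.38. Both arrays also read highest in their group for Dbp (7.88 and 7.66) and Tef (6.16 and 6.34). The B2KO array is the one with high Xist, and the FVB array had a Gapdh 3′ signal 2.06 log2 units above its 5′ signal. Nr1d1 read -0.26 in untreated B2KO replicate 8, where the others lay between 3.05 and 4.86 and where the Gapdh difference was 7.31. Per1 at -0.28 and Tef at 0.82 in treated B2KO replicate 10 belong to the failed array.

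The response to isoproterenol differed between lines, by a test of the interaction itself with limma, at Npas2 for B2KO minus C57BL/6 (-1.21, adjusted p = 0.0494), Nr1d1 for B6129SF2/J minus C57BL/6 (-2.26, adjusted p = 0.00440), Cry1 for B6129SF2/J minus C57BL/6 (1.70, adjusted p = 0.000940) and Cry1 for B6129SF2/J minus B2KO (1.62, adjusted p = 0.0429). The calls that involve B2KO were lost without the failed array, and the other 2 were not.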

How the results depend on the processing

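No alternative reversed a called difference. In FVB the count of called genes, 0, became 1 with quantile normalization and with probe sets averaged per gene, and 2 with arrays centred, without the failed array, without it and the arrays in doubt by line, and without all arrays in doubt. It ran from 0 to 2 over single omissions. In C57BL/6 the count of 2 became 1 with probe sets averaged and ran from 1 to 3. The counts of 5 in B6129SF2/J and 4 in the average stayed within 1.5 times. For B2KO minus C57BL/6 the count of 1 became 0 without a filter, with the stricter filter, centring, robust moderation, only the lines compared, the duplicate kept and without the failed array, with or without the arrays in doubt by line, and ran from 0 to 2. For B6129SF2/J minus B2KO the count of 1 became 0 without a filter, with quantile normalization, centring, averaging, only the lines compared and in each fit without doubtful arrays, and ran from 0 to 1. For B6129SF2/J minus C57BL/6 the count of 2 became 4 with averaging, and 3 with only the lines compared and without all arrays in doubt. Between untreated FVB and C57BL/6 the count of 2 became 1 with the stricter filter and ran from 1 to 3. Between untreated B6129SF2/J and C57BL/6 the count of 2 became 1 with quantile normalization. It became 3 with averaging, with only the lines compared, without the failed array and those in doubt by line, and without all arrays in doubt. Between untreated B6129SF2/J and FVB the count of 1 became 0 with the stricter filter, which keeps 7 of the 10 genes, and 2 without all arrays in doubt. The correlations called numbered 2, and 1 with quantile normalization or without all arrays in doubt. Where the construction does not show it, the cause was not tested. With the replicate block (correlation 0.0027) the count in B6129SF2/J stayed 5 and no call of the 10 genes changed. Scaling moved the median of all probe sets from 0.10 to -0.10 in C57BL/6 when arrays were centred, and the share of calls that were higher from 62.6% to 38.2%. Centring moved that share from 54.4% to 36.9% in FVB, from 5.58% to 28.0% in B2KO, from 17.4% to 65.1% for B2KO minus C57BL/6, from 40.8% to 59.3% for B6129SF2/J minus C57BL/6, from 41.3% to 52.5% for FVB minus C57BL/6 and from 67.7% to 50.0% between untreated B6129SF2/J and FVB. In B6129SF2/J it was 47.5%, and 44.0% when centred. The median of all probe sets moved from -0.38 to 0.07 for B2KO minus C57BL/6 and from 0.26 to 0.00 for B6129SF2/J minus B2KO. Limits are the missing time of collection, the doubtful arrays and probe sets that read near the array median.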
